A study of Homo sapiens with 44 samples.

Results

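Histone genes were followed through 2 RNA sequencing experiments in HCT116, an established human colon cancer cell line whose p53 gene is intact (p53+/+). They were chosen by symbol: every gene whose name starts with HIST1H, HIST2H, HIST3H or HIST4H, together with H1F0, H1FX, H2AFX, H2AFJ, H2AFY and H3F3B. H3F3A, also named by the rule, was not analysed here. The rule found 49 of the 18797 genes in the GAS41 experiment and 52 of the 21159 genes in the doxorubicin experiment, 53 genes in all, of which 48 were listed in both. Of these 53, 15 stood at least 1 log2 unit above the lowest value of the table in 3 or more libraries of at least 1 experiment, and 11 did so in both. That level corresponds to 39.1 normalized reads in the GAS41 experiment and 52.6 in the doxorubicin experiment, a normalized read being a read count divided by the size factor of its library. The 15 reported genes are 9 genes of the histone clusters (HIST1H1C, HIST1H2AC, HIST2H2AC, HIST3H2A, HIST1H2BD, HIST1H2BK, HIST2H2BC, HIST2H2BE and HIST1H4C) and 6 genes that lie alone (H1F0, H1FX, H2AFX, H2AFJ, H2AFY and H3F3B). The remaining 38 genes were below the level in both experiments and are described by their summed reads, apart from HIST1H2BC and HIST1H1E, whose values are also given.

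The GAS41 experiment held 3 libraries in each of 4 groups, all poly-A selected and sequenced on a BGISEQ-500 per the labels. The mut rescue group was GAS41-KO cells with a stable GFP-Flag-GAS41 transgene carrying Y74A/W93A, the wt rescue group was GAS41-KO cells with the same transgene in wild-type form, and the other groups were GAS41-KO cells and WT cells. GAS41, encoded by YEATS4, is a reader protein whose YEATS domain binds acylated lysines of histone H3, and the residues changed in the mutant lie in that domain. The doxorubicin experiment held 3 libraries of WT cells given 500 nM doxorubicin (Dox), a drug that poisons topoisomerase II and breaks DNA, and 3 libraries of cells given the solvent DMSO, sequenced on an Illumina HiSeq. The exposure time, the way the knockout was made and the number of clones behind each group are not given in the sources used here. The labels call the libraries of a group biological replicates without naming separate cultures, so the p-values below measure the spread between these libraries.

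YEATS4, the knocked-out gene, stood at 2551, 2358 and 2538 normalized reads in mut rescue cells and at 2887, 3500 and 3372 in wt rescue cells. It stood at 386, 337 and 325 in GAS41-KO cells, against 625, 608 and 621 in WT cells, so knockout cells kept YEATS4 reads at a lower level (log2 difference -0.64 ± 0.07 SE, limma adjusted p = 2.1e-06). Both rescue groups carried more YEATS4 reads than WT cells. In Dox cells YEATS4 stood at 173, 193 and 188 normalized reads, against 694, 612 and 698 in DMSO cells.

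Histones are the proteins that DNA is wrapped around: H2A, H2B, H3 and H4 form the core of the nucleosome, and linker H1 sits where DNA enters and leaves it. Most histone genes lie in clusters, are expressed in S phase, and give mRNAs that end in a stem-loop bound by SLBP in place of a poly-A tail. Some cluster genes can also give polyadenylated mRNAs, which is known from cells that stop dividing or differentiate. Most genes outside the clusters encode variants whose mRNAs carry a poly-A tail. Which form of mRNA the H2AFX reads came from was not measured here. Libraries made from poly-A RNA are therefore a poor measure of the stem-loop form. Whether the doxorubicin libraries were poly-A selected is not given clearly in the sources used here.

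Promoter stretches are shown for the cluster genes that were higher in GAS41-KO cells, for 2 gene pairs that share a promoter region, and for H2AFX and H1FX, which were lower in Dox cells. They come from RefSeq (GRCh38.p14). Of the 53 genes, 50 matched 1 RefSeq gene and 44 had a promoter entry, among them 12 of the 15 reported genes. Each stretch ends at the base before the transcription start and runs 5′ to 3′ on the strand of the named gene. Capitals mark matches, on either strand, to the octamer ATTTGCAT (the sequence bound by the POU2F1 protein and known from H2B promoters), the CCAAT box CCAAT, the TATA box TATAAA and the H1 box AAACACA, none of which holds another. HIST1H2BD is shown at chr6:26157991-26158120 on the + strand, HIST1H2BK at chr6:27146859-27146988 on the - strand, HIST1H1C at chr6:26056471-26056600 on the - strand, HIST3H2A at chr1:228457874-228458003 on the - strand, H2AFX at chr11:119095466-119095595 on the - strand and H1FX at chr3:129316287-129316416 on the - strand. The other two stretches hold every base between a pair of divergent start sites: the 245 bases from the HIST1H2BC start to the HIST1H2AC start (chr6:26123927-26124171, + strand) and the 235 bases from the HIST2H2BE start to the HIST2H2AC start (chr1:149886683-149886917, + strand).
HIST1H2BD: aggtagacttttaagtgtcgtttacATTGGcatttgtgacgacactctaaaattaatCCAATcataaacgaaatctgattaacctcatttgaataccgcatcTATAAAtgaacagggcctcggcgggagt
HIST1H2BK: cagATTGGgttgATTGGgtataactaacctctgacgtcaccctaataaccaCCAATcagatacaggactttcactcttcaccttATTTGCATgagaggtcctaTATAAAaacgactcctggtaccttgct
HIST3H2A: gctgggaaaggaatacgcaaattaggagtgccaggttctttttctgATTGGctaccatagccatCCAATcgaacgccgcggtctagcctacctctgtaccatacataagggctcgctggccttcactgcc
HIST1H1C: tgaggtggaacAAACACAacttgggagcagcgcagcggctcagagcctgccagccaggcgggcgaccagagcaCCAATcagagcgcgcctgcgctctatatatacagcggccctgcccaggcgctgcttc
HIST1H2AC: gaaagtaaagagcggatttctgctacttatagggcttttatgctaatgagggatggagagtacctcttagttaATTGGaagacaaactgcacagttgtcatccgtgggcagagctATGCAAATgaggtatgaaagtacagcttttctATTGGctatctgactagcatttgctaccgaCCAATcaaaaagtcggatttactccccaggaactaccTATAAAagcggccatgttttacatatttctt
HIST2H2AC: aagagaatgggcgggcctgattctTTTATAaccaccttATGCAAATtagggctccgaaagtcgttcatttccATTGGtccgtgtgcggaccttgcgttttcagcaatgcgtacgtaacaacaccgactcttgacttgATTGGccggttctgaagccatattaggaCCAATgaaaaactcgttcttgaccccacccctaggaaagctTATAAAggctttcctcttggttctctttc
H2AFX: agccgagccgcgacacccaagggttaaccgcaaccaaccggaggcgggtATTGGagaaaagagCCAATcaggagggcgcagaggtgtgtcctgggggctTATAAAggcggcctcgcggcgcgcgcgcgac
H1FX: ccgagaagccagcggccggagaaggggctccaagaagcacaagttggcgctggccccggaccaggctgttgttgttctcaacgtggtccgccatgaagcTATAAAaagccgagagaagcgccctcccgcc

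Within the 250 bases before the start, on either strand, the octamer was found in 8 of the 11 H2A and 7 of the 11 H2B cluster promoters. It was found in 1 of 7 H3 promoters, and in 0 of 8 H4 and 0 of 2 H1 promoters. A copy between divergent start sites counts for both genes, as the copy between HIST2H2AC and HIST2H2BE does. Except in HIST1H2AM, the H2A matches lay on the strand opposite to the gene. Among all 27305 promoters in RefSeq 1.66% held it. The CCAAT box was found in all 11 H2A, all 11 H2B, all 7 H3 and both H1 cluster promoters and in 1 of 8 H4 promoters, and 33.0% of all promoters held it. The TATA box was found in 9 of 11 H2A, 8 of 11 H2B, 6 of 7 H3, 5 of 8 H4 and 1 of 2 H1 promoters, against 11.1% of all promoters. Both H1 cluster promoters held the H1 box, found in 4.95% of all promoters. In HIST1H2BK and HIST2H2BE the octamer lay at the same place, from -46 to -39 relative to the start. In the HIST2H2AC to HIST2H2BE stretch a single copy stands beside the HIST2H2BE start. In the HIST1H2BD window no exact copy was found, as in some other H2B cluster promoters. The printed HIST1H2BD stretch holds atttgaat before its TATA box, which differs from the octamer by 1 letter. Only exact matches were counted. Where RefSeq lists more than 1 promoter for a gene, as for HIST1H2BD and HIST1H2BK, only the first was searched. These matches describe letters only, and no binding was measured here.

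All libraries had close depths, 16857982 to 18546135 reads in the GAS41 experiment and 17442035 to 18894312 in the doxorubicin experiment. A check list of 12 RNAs that lack a poly-A tail summed to between 10.5 and 31.9 normalized reads in the GAS41 libraries and between 13.6 and 104 in the doxorubicin libraries, with the highest value in Dox replicate 2. Of 7 tested markers of colon epithelium 3 were called higher, 2 lower and 2 neither in GAS41-KO against WT cells, beside 26.0% higher and 26.6% lower over all tested genes. With Dox 7 of 8 were called higher and 1 lower, beside 32.3% and 33.4% of all tested genes. The list summed to 65876 to 79893 normalized reads in mut rescue, 76416 to 89284 in wt rescue, 63529 to 65391 in GAS41-KO and 56808 to 60435 in WT cells, and to 146032 to 165193 in Dox and 72259 to 87982 in DMSO cells. The list as a whole thus did not fall in GAS41-KO cells, where 3 members were called higher and the sum was above that of WT cells. Its 2 members called lower in GAS41-KO cells were EPCAM and CDH1. EPCAM, an epithelial surface protein, stood at 1834, 1511 and 1666 in mut rescue, 8126, 9608 and 9302 in wt rescue, 932, 898 and 915 in GAS41-KO and 7876, 7187 and 7446 in WT cells. CDH1, the epithelial cadherin, was also low in mut rescue and GAS41-KO cells, with means of 163 in mut rescue, 1350 in wt rescue, 138 in GAS41-KO and 1419 in WT cells. The part of these marker differences in the histone values below was not tested. Markers of blood and immune cells summed to at most 11.8 normalized reads in any library, and endothelial markers to at most 32.6. Fibroblast markers summed to 155 to 331 normalized reads in the GAS41 libraries and 243 to 383 in the doxorubicin libraries. In a bulk library, fewer cells expressing a gene and less RNA per cell cannot be told apart. Histone genes of 1 class are near copies of each other. The sources used here do not say whether reads were assigned by strand or how reads matching several genes were treated. The split of reads between cluster genes is therefore uncertain. In RefSeq HIST1H2BD overlaps H2BC6-AS1 and LARP1P1, HIST1H2BK overlaps HIST1H4I, HIST2H2BC overlaps HIST2H4B and H2AFY overlaps PITX1-AS1. Reads from these shared stretches could not be told apart.

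The reported genes of the histone clusters were mostly higher in GAS41-KO cells than in WT cells. Of the 15 reported genes 8 were called higher, 2 lower and 5 neither, at a Benjamini-Hochberg adjusted p under 0.05 from limma. Over all 14505 genes tested, 26.0% were called higher and 26.6% lower. Among the 9 cluster genes 7 were called higher and the others, HIST2H2BC and HIST1H4C, were not called, and among the 6 single genes 1 was called higher and 2 lower. The median log2 difference was 0.47 over the cluster genes and 0.02 over the single genes, beside -0.01 over all genes tested. Of the 15, 5 reached the reporting level only in some groups (HIST1H2AC, HIST1H2BD, HIST2H2AC, HIST2H2BC and HIST2H2BE), which favours genes that differ. All 5 are cluster genes, so the cluster counts and the cluster median above carry this limit. Of the cluster genes at the level in all 12 libraries, HIST1H1C, HIST1H2BK and HIST3H2A were called higher and HIST1H4C was not called. The other 10 reached it in all 12 libraries, and of them 4 were called higher and 2 lower. In 12 of the 15 genes the 3 knockout libraries did not overlap the 3 WT libraries, as was so for 69.0% of all tested genes. Log2 differences here are on the deposited scale, which compresses changes of genes with few reads, so the ratio of mean normalized reads is given beside them.

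**Figure D1:**
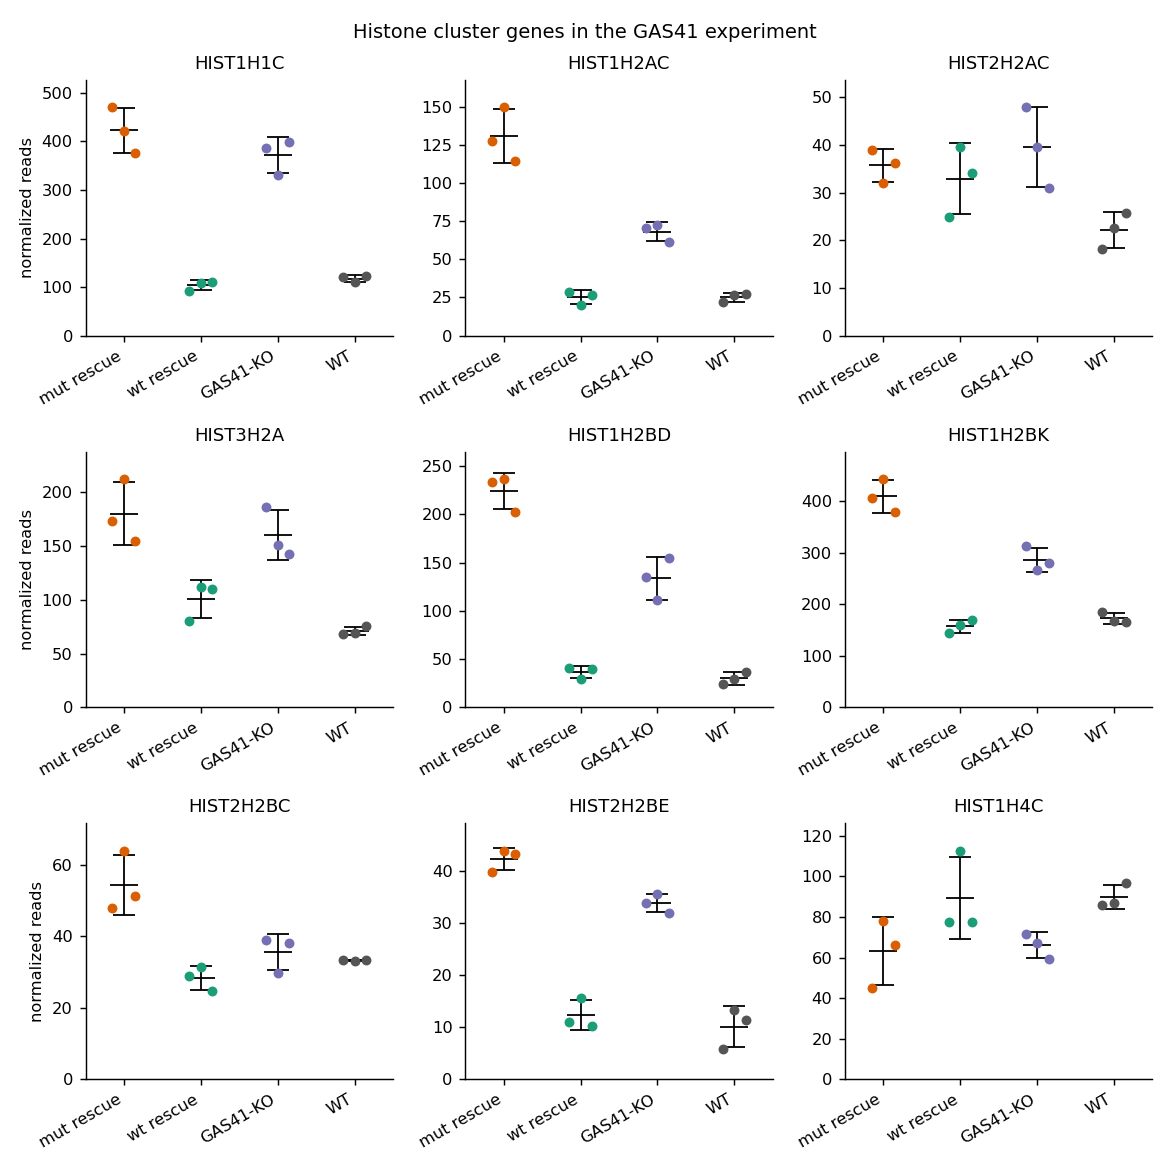
Normalized reads (vertical axis, linear from 0) of the 9 reported histone cluster genes in mut rescue, wt rescue, GAS41-KO and WT cells. Points are libraries, the long bar is the mean and the whiskers are 1 SD (n = 3). HIST1H1C, HIST1H2AC, HIST1H2BD, HIST1H2BK and HIST2H2BE are high in mut rescue and GAS41-KO cells and low in wt rescue and WT cells, while HIST1H4C is not.

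Linker histone HIST1H1C, one of the H1 proteins made throughout the body, stood at 386, 331 and 399 normalized reads in GAS41-KO cells, against 120, 110 and 123 in WT cells. Every knockout library lay above every WT library, a ratio of 3.16 (log2 difference 1.05 ± 0.07 SE, limma adjusted p = 6.3e-09). H1FX, a linker histone encoded outside the clusters, stood at 2150, 2145 and 2144 in GAS41-KO cells, against 1418, 1525 and 1396 in WT cells. It was 1.48 times higher (log2 difference 0.53 ± 0.13, limma adjusted p = 0.0032). H1F0, the linker histone known to accumulate in resting and differentiated cells, went the other way, with 10594, 10226 and 10824 in GAS41-KO cells, against 12235, 12070 and 11656 in WT cells. Its log2 difference was -0.18 ± 0.07 (limma adjusted p = 0.043). That call was lost without any 1 of the 6 libraries, when the adjusted p lay between 0.065 and 0.14.

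Among H2A genes, HIST1H2AC stood at 70.8, 72.3 and 61.1 in GAS41-KO cells, against 22.0, 26.4 and 27.5 in WT cells, 2.69 times higher without overlap (log2 difference 0.49 ± 0.06, limma adjusted p = 9.1e-06). HIST3H2A stood at 187, 151 and 143, against 68.7, 68.9 and 75.9 in WT cells, 2.25 times higher (log2 difference 0.59 ± 0.08, limma adjusted p = 1.7e-05). HIST2H2AC had fewer reads, 47.9, 39.6 and 31.0 in GAS41-KO cells, against 18.1, 22.7 and 25.6 in WT cells (log2 difference 0.24 ± 0.07, limma adjusted p = 0.0062). All 3 are replication-type H2A genes. H2AFY, which encodes macroH2A, a variant with a large extra domain found in repressed chromatin, was lower at 3190, 3066 and 3114 in GAS41-KO cells, against 4041, 3982 and 3930 in WT cells (log2 difference -0.34 ± 0.06, limma adjusted p = 0.00029). H2AFX, the variant phosphorylated at DNA breaks, was not called, with 2325, 2333 and 2413 in GAS41-KO cells and 2299, 2509 and 2394 in WT cells. H2AFJ, a variant known to accumulate in senescent human cells, was not called either, with 151 to 158 in GAS41-KO cells and 124 to 142 in WT cells.

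HIST1H2BD had the highest ratio of the 15 genes. It stood at 135, 111 and 155 normalized reads in GAS41-KO cells, against 23.9, 29.3 and 37.0 in WT cells, a ratio of 4.45 (log2 difference 0.89 ± 0.08, limma adjusted p = 7.1e-08). HIST2H2BE stood at 33.9, 35.6 and 32.0, against 5.73, 13.2 and 11.4 in WT cells, a ratio of 3.35 (log2 difference 0.42 ± 0.06, limma adjusted p = 2.0e-05). HIST1H2BK stood at 312, 266 and 279, against 185, 168 and 165 in WT cells, 1.65 times higher (log2 difference 0.47 ± 0.06, limma adjusted p = 1.6e-05). These 3 genes encode H2B, and in each of them the groups were apart. HIST2H2BC, which RefSeq lists as a transcribed pseudogene (H2BC20P), was not called, at 38.9, 29.7 and 38.0 in GAS41-KO cells and 33.4, 33.1 and 33.2 in WT cells.

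H3F3B, which encodes the replication-independent histone H3.3, was not called, at 17909, 16375 and 17142 normalized reads in GAS41-KO cells and 16262, 15881 and 17285 in WT cells. HIST1H4C, the one H4 gene that reached the level, had 71.8, 67.3 and 59.1 in GAS41-KO cells and 85.9, 86.9 and 96.8 in WT cells. The 2 groups of HIST1H4C did not overlap, but the gene missed the threshold (log2 difference -0.20 ± 0.08, limma adjusted p = 0.056). It was called lower when only these 2 groups were fitted (adjusted p = 0.0031), with quantile normalization (0.026) and with the replicate number as a block (0.041), and over all its alternatives the adjusted p lay between 0.0031 and 0.17.

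The wt rescue cells lay close to WT cells in most cluster genes and away from GAS41-KO cells. Against GAS41-KO cells, 2 of the 15 genes were called higher and 7 lower, with 33.0% of all tested genes called higher and 33.0% lower. All 6 cluster genes called in this comparison were lower in wt rescue. This comparison shares its GAS41-KO libraries with the comparison of knockout and WT cells. Of the 10 genes at the level in every library, 2 were called higher and 4 lower.

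HIST1H1C stood at 91.6, 108 and 111 normalized reads in wt rescue cells, against 386, 331 and 399 in GAS41-KO cells (log2 difference -1.14 ± 0.07, limma adjusted p = 1.9e-09). HIST1H2BD stood at 40.8, 29.2 and 40.3, against 135, 111 and 155 in GAS41-KO cells (log2 difference -0.80 ± 0.08, limma adjusted p = 1.6e-07). HIST1H2AC stood at 28.9, 19.8 and 26.8, against 70.8, 72.3 and 61.1 in GAS41-KO cells (log2 difference -0.50 ± 0.06, limma adjusted p = 5.4e-06). In these genes each wt rescue library lay below each knockout library. HIST1H2BK at 144, 160 and 169, HIST2H2BE at 11.0, 15.6 and 10.3 and HIST3H2A at 80.7, 112 and 110 were also called lower in wt rescue than in GAS41-KO cells.

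H2AFY was higher in wt rescue cells, at 3982, 4615 and 4442, against 3190, 3066 and 3114 in GAS41-KO cells (log2 difference 0.46 ± 0.06, limma adjusted p = 1.0e-05). H3F3B was also higher, at 18551, 22965 and 23192, against 17909, 16375 and 17142 (log2 difference 0.32 ± 0.08, limma adjusted p = 0.0016). With quantile normalization the H3F3B difference was 0.01 and no longer called (adjusted p = 0.84, the highest over its alternatives). H1F0 was lower still in wt rescue, at 6485, 7927 and 7539, against 10594, 10226 and 10824 in GAS41-KO cells (log2 difference -0.52 ± 0.07, limma adjusted p = 9.7e-06). For H1F0 the rescue libraries thus lay farther from WT cells than the knockout libraries did.

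Set directly against WT cells, wt rescue cells had 3 of the 15 genes called higher and 1 lower, with 27.4% of all tested genes called higher and 22.7% lower. The gene called lower was H1F0, at 6485, 7927 and 7539 in wt rescue cells, against 12235, 12070 and 11656 in WT cells (log2 difference -0.71 ± 0.07, limma adjusted p = 4.5e-06). The genes called higher were H3F3B (0.38 ± 0.08, limma adjusted p = 0.0011), H1FX (0.40 ± 0.13, limma adjusted p = 0.020) and HIST3H2A (0.23 ± 0.08, limma adjusted p = 0.030). Without wt rescue replicate 2 or 3 or WT replicate 1 only 1 gene, H3F3B, was called higher, and without wt rescue replicate 1 there were 5. The H1FX call was also lost without WT replicate 3 (adjusted p = 0.062) and with quantile normalization (0.079, the highest over its alternatives), and the HIST3H2A call without WT replicate 2 (0.076). With quantile normalization the H3F3B difference was 0.12 and no longer called (adjusted p = 0.090). HIST1H1C, HIST1H2AC, HIST1H2BD, HIST1H2BK and HIST2H2BE were not called, their log2 differences lying between -0.09 and 0.09, which does not show that the levels were equal. With quantile normalization HIST1H2BD was called higher (0.19, adjusted p = 0.048).

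The mut rescue cells did not follow wt rescue cells. Against GAS41-KO cells 4 of the 15 genes were called higher and 0 lower, where 5.92% of all tested genes were called higher and 9.0% lower. Of the 10 genes at the level in every library 1, HIST1H2BK, was called higher, and the 3 others called did not reach it in every library. At an unadjusted p under 0.05 limma gave 2 genes lower (H1F0 and H2AFX), and voom followed by limma called 0. The 4 genes were HIST1H2AC, HIST1H2BD, HIST1H2BK and HIST2H2BC, which are 3 of the 4 reported H2B genes and 1 H2A gene. HIST2H2BE, the fourth H2B gene, was not called. HIST1H2AC stood at 128, 150 and 115 normalized reads in mut rescue cells, against 70.8, 72.3 and 61.1 in GAS41-KO cells (log2 difference 0.45 ± 0.06, limma adjusted p = 0.00018). HIST1H2BD stood at 233, 236 and 202, against 135, 111 and 155 in GAS41-KO cells (log2 difference 0.45 ± 0.08, limma adjusted p = 0.00076). HIST1H2BK stood at 406, 443 and 379, against 312, 266 and 279 in GAS41-KO cells (log2 difference 0.37 ± 0.06, limma adjusted p = 0.00094). In these 3 genes the groups did not overlap. HIST2H2BC stood at 47.9, 63.9 and 51.3, against 38.9, 29.7 and 38.0 (log2 difference 0.21 ± 0.06, limma adjusted p = 0.021), a call lost without mut rescue replicate 2 (adjusted p = 0.070) or GAS41-KO replicate 2 (adjusted p = 0.11). HIST1H1C was not called, at 471, 421 and 377 in mut rescue cells and 386, 331 and 399 in GAS41-KO cells.

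Mut rescue replicate 2 was the highest of its group in several single genes. It had 2516 normalized reads of H2AFX, against 1874 and 1768. Of H1FX it had 2494, against 1948 in replicate 1 and 1364 in replicate 3, so all libraries of the group lay apart there. When mut rescue replicate 2 was left out, 3 genes (H1F0, H1FX and H2AFX) were called lower in mut rescue than in GAS41-KO cells. With that library 0 were called lower.

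The mutant and wild-type rescue differ by the 2 changed residues and also in YEATS4 reads, which were above WT cells in both but lower in mut rescue than in wt rescue cells (log2 difference -0.37 ± 0.07, limma adjusted p = 0.00044). The part of that difference in the histone values was not tested. Between mut rescue and wt rescue, 8 of the 15 genes were called higher and 4 lower, with 29.8% of all tested genes called higher and 31.3% lower. Of the 10 genes at the level in every library 4 were called higher and 4 lower. HIST1H2BD was 6.09 times higher (233, 236 and 202 in mut rescue, against 40.8, 29.2 and 40.3 in wt rescue, log2 difference 1.25 ± 0.08, limma adjusted p = 1.8e-09). HIST1H2AC was 5.19 times higher (128, 150 and 115, against 28.9, 19.8 and 26.8, log2 difference 0.95 ± 0.06, limma adjusted p = 7.4e-09). HIST1H1C was 4.07 times higher (471, 421 and 377, against 91.6, 108 and 111, log2 difference 1.28 ± 0.07, limma adjusted p = 7.8e-10). In each of these genes the lowest mut rescue library was above the highest wt rescue library. HIST1H2BK, HIST2H2BE, HIST3H2A, HIST2H2BC and H1F0 were the others called higher, with log2 differences between 0.31 and 0.92.

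H2AFY was lower in mut rescue cells, at 2987, 3197 and 2914, against 3982, 4615 and 4442 in wt rescue cells (log2 difference -0.50 ± 0.06, limma adjusted p = 6.6e-06). H3F3B, H2AFX and HIST1H4C were also called lower, with log2 differences of -0.25, -0.28 and -0.22. Each of these 3 calls depended on single libraries. H2AFX lost it without mut rescue replicate 1 (adjusted p = 0.077) or replicate 3 (0.093), HIST1H4C without mut rescue replicate 1 (0.18) or wt rescue replicate 2 (0.16), and H3F3B without wt rescue replicate 3 (0.058). Over all alternatives the adjusted p reached 0.12 for H2AFX, 0.18 for HIST1H4C and 0.45 for H3F3B.

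Against WT cells, mut rescue cells had 9 of the 15 genes called higher and 3 lower, with 23.5% of all tested genes called higher and 22.9% lower. The 9 were all cluster genes other than HIST1H4C, and H1FX. Among the 10 genes at the level in every library, 4 were called higher and 3 lower. HIST2H2BC and HIST2H2BE reached the level only in mut rescue libraries, which favours a higher value there. HIST1H2BD had a log2 difference of 1.34 ± 0.08 in mut rescue and 0.89 ± 0.08 in GAS41-KO cells against the same WT libraries. HIST1H1C had 1.19 ± 0.07 in mut rescue and 1.05 ± 0.07 in GAS41-KO cells. HIST1H2AC had 0.94 ± 0.06 in mut rescue and 0.49 ± 0.06 in GAS41-KO cells. The 3 called lower were H1F0 (-0.40 ± 0.07), H2AFY (-0.38 ± 0.06) and HIST1H4C (-0.23 ± 0.08). The H1FX call was lost without mut rescue replicate 1 or 2 or any 1 of the WT libraries (adjusted p = 0.057 to 0.22). The HIST2H2AC call was lost without mut rescue replicate 1 or 3 or WT replicate 1 (adjusted p = 0.054 to 0.10), and the HIST1H4C call without mut rescue replicate 1 or any 1 of the WT libraries (adjusted p = 0.053 to 0.17).

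**Figure D2:**
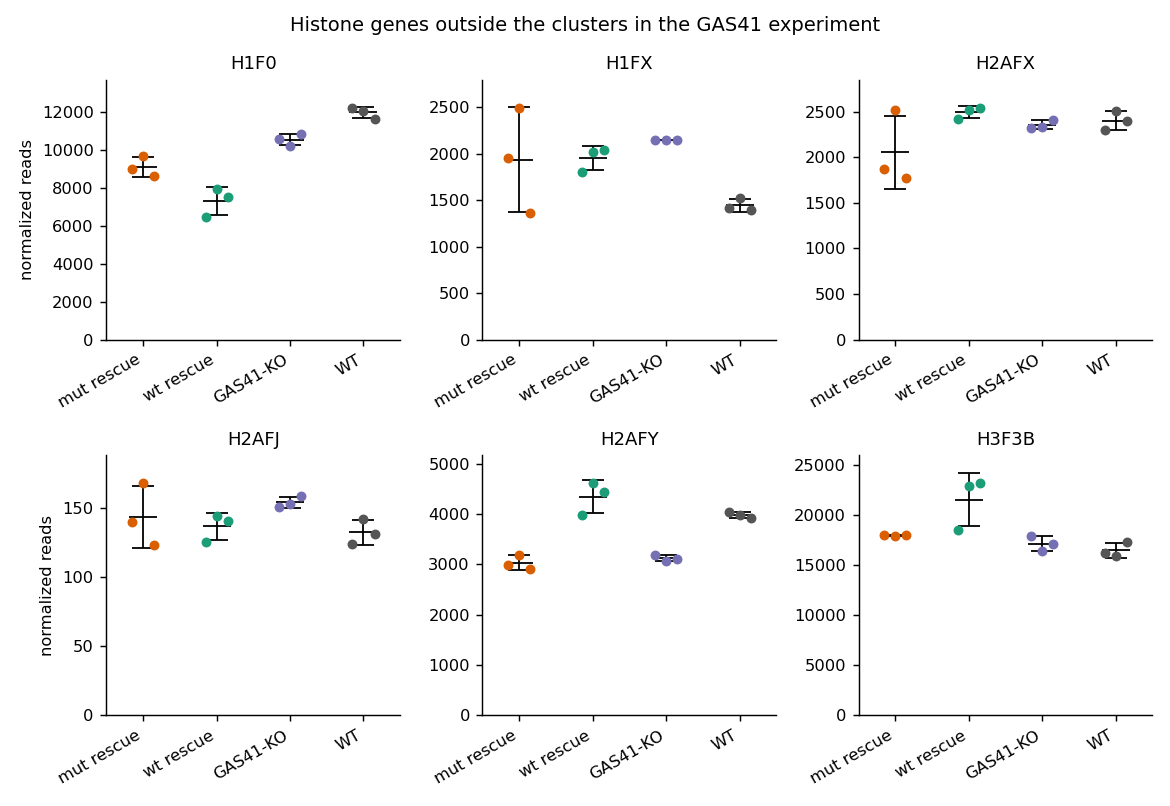
Normalized reads (vertical axis, linear from 0) of the 6 reported histone genes outside the clusters in mut rescue, wt rescue, GAS41-KO and WT cells. Points are libraries, the long bar is the mean and the whiskers are 1 SD (n = 3). H2AFY is low in mut rescue and GAS41-KO cells and high in wt rescue and WT cells, and H1F0 is lowest in wt rescue cells.

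With doxorubicin H2AFX and H1FX fell, and HIST1H2BD and H2AFJ rose. Of the 11 genes at the reporting level in this experiment, 3 were called higher and 3 lower in Dox than in DMSO cells, with 32.3% of all 14195 genes tested called higher and 33.4% lower, a share of the histone genes near that of all genes. In 8 of the 11 the groups did not overlap, as was so for 69.1% of all tested genes. HIST1H2BD reached the level only through the Dox libraries, and of the other 10 genes 2 were called higher and 3 lower. The tables of the experiments were normalized separately, so values are compared only within each.

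**Figure D3:**
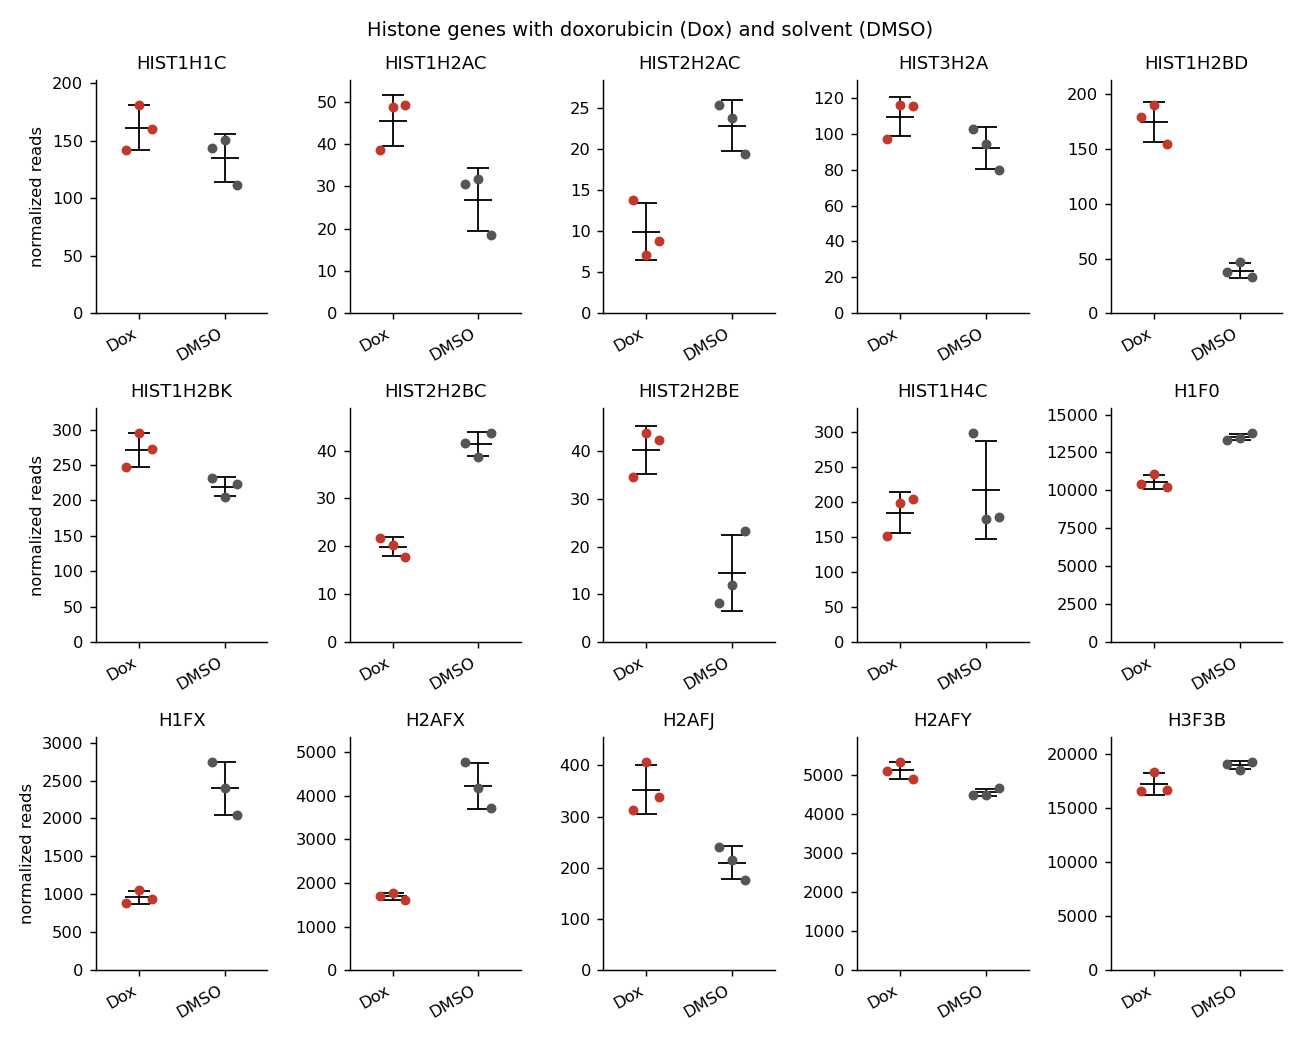
Normalized reads (vertical axes, linear from 0) of the 15 reported histone genes in Dox and DMSO cells. Points are libraries, the long bar is the mean and the whiskers are 1 SD (n = 3). HIST1H2BD, HIST2H2BE and H2AFJ are higher in Dox cells, and H1FX, H2AFX, H1F0, HIST2H2AC and HIST2H2BC are lower.

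H2AFX, whose protein marks DNA breaks once phosphorylated, stood at 1714, 1770 and 1601 normalized reads in Dox cells, against 4779, 4184 and 3714 in DMSO cells. Every Dox library lay below every DMSO library, a ratio of 0.401 (log2 difference -1.22 ± 0.09, limma adjusted p = 6.7e-08). In RefSeq H2AFX overlaps DPAGT1, which averaged 476 ± 28.5 in Dox cells and 658 ± 36.5 in DMSO cells (SD, n = 3 each), and reads from their shared stretch could not be told apart. H1FX fell to 890, 1055 and 939 in Dox cells, against 2748, 2396 and 2049 in DMSO cells, a ratio of 0.401 (log2 difference -1.16 ± 0.09, limma adjusted p = 2.3e-07). Its overlapping antisense gene H1FX-AS1 had at most 22.7 normalized reads in any library of either experiment. H1F0 stood at 10415, 11064 and 10188 in Dox cells, against 13353, 13482 and 13770 in DMSO cells (log2 difference -0.35 ± 0.07, limma adjusted p = 0.00068). All 3 genes called lower among the 11 at the reporting level lie outside the clusters.

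HIST1H2BD rose to 179, 190 and 155 normalized reads in Dox cells, against 37.6, 46.6 and 33.0 in DMSO cells, a ratio of 4.47 (log2 difference 0.88 ± 0.06, limma adjusted p = 7.2e-08). H2AFJ rose to 313, 407 and 338, against 241, 214 and 176 in DMSO cells, 1.68 times higher (log2 difference 0.47 ± 0.08, limma adjusted p = 0.00025). HIST1H2BK stood at 247, 295 and 273, against 232, 204 and 223 in DMSO cells (log2 difference 0.18 ± 0.06, limma adjusted p = 0.023). The HIST1H2BK call was lost without Dox replicate 2 (adjusted p = 0.081), Dox replicate 3 (0.066) or DMSO replicate 2 (0.098), and with quantile normalization (0.16, the highest over its alternatives). HIST1H1C was not called, at 142, 181 and 160 in Dox cells and 143, 151 and 112 in DMSO cells.

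HIST3H2A, H2AFY, H3F3B and HIST1H4C were not called either. H2AFY had 5106, 5350 and 4918 in Dox cells and 4504, 4504 and 4675 in DMSO cells, and H3F3B had 16588, 18336 and 16612 in Dox cells and 19039, 18531 and 19251 in DMSO cells. In both genes the groups were apart but the test missed the threshold (limma adjusted p = 0.053 for H2AFY and 0.12 for H3F3B). H2AFY was called higher with quantile normalization (log2 difference 0.26, adjusted p = 0.0019), with a single prior variance (0.032), with voom (0.047) and without DMSO replicate 3 (0.047). H3F3B was called lower without Dox replicate 2 (adjusted p = 0.030). HIST1H4C had 151, 199 and 204 in Dox cells and 299, 176 and 179 in DMSO cells, where DMSO replicate 1 was the highest.

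Reported genes that stayed below the level in this experiment were HIST1H2AC, HIST2H2AC, HIST2H2BC and HIST2H2BE. HIST2H2BE stood at 34.6, 43.8 and 42.4 normalized reads in Dox cells, against 8.13, 11.9 and 23.3 in DMSO cells, 2.79 times higher (log2 difference 0.36 ± 0.07, limma adjusted p = 0.00049). HIST2H2AC, whose start lies 235 bases away on the other side of the shared stretch printed above, stood at 13.8, 7.12 and 8.88 in Dox cells, against 25.4, 23.8 and 19.4 in DMSO cells, a ratio of 0.435 (log2 difference -0.23 ± 0.06, limma adjusted p = 0.0029). The divergent pair thus moved in opposite directions with Dox, while both of its genes were called higher in GAS41-KO than in WT cells. HIST2H2BC stood at 21.7, 20.4 and 17.8 in Dox cells, against 41.7, 38.7 and 43.7 in DMSO cells (log2 difference -0.27 ± 0.05, limma adjusted p = 0.00048). HIST1H2AC stood at 38.5, 48.9 and 49.3 in Dox cells, against 30.5, 31.8 and 18.4 in DMSO cells (log2 difference 0.21 ± 0.06, limma adjusted p = 0.0090), a call lost with quantile normalization (adjusted p = 0.16). Its divergent partner HIST1H2BC, below the level in both experiments, had 2.96, 5.09 and 2.96 in Dox cells and 5.08, 5.95 and 5.82 in DMSO cells. In the GAS41 experiment HIST1H2BC had 21.9, 23.9 and 14.1 in mut rescue, 4.98, 5.22 and 3.10 in wt rescue, 14.0, 10.9 and 13.0 in GAS41-KO and 3.82, 1.89 and 4.74 in WT cells, so both genes of the pair were high in mut rescue and GAS41-KO cells.

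**Figure D4:**
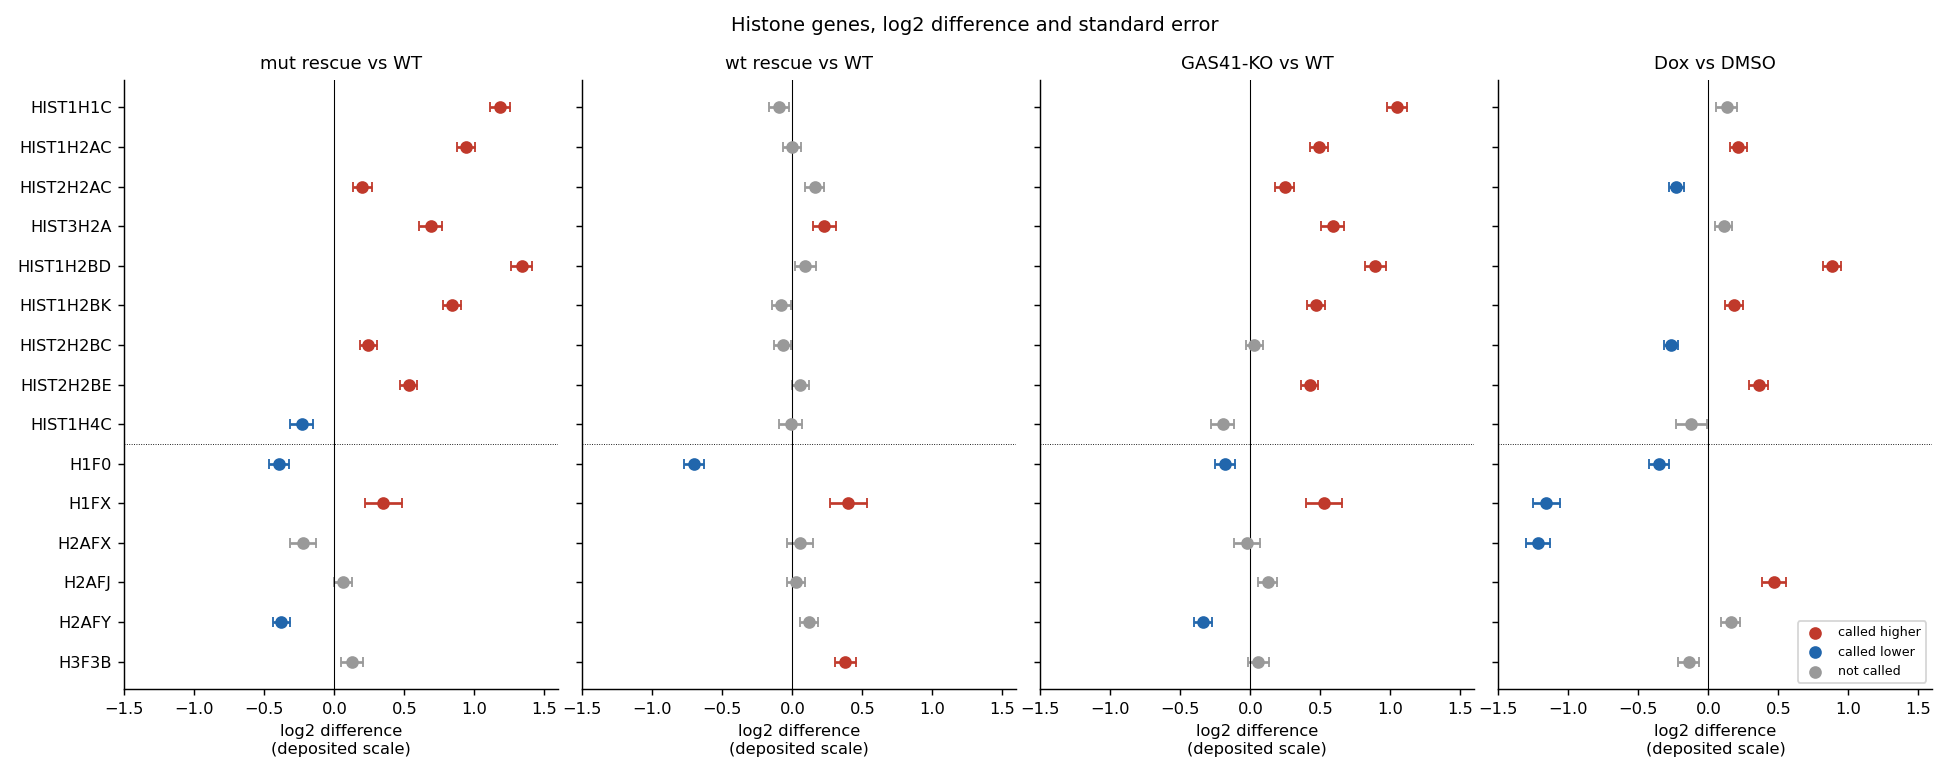
Log2 difference on the deposited scale (horizontal axis) with its standard error for the 15 histone genes, cluster genes above the dotted line and single genes below it, in mut rescue, wt rescue and GAS41-KO cells against WT cells and in Dox against DMSO cells. HIST1H2BD is called higher in every panel except wt rescue against WT, and H1FX is called higher in the GAS41 panels and lower with Dox.

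Side by side, the knockout and the drug gave HIST1H2BD near equal ratios, 4.45 in GAS41-KO over WT cells and 4.47 in Dox over DMSO cells. HIST1H1C had a ratio of 3.16 in GAS41-KO over WT cells and of 1.19 in Dox over DMSO cells. H1FX had a ratio of 1.48 in GAS41-KO over WT cells and of 0.401 in Dox over DMSO cells. The comparisons come from separate tables, and their difference was not tested.

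Histone genes below the reporting level added few reads. In the GAS41 experiment 34 such genes summed to 174, 215 and 140 normalized reads in mut rescue, 89.6, 80.3 and 65.0 in wt rescue, 134, 142 and 127 in GAS41-KO and 73.5, 63.3 and 64.5 in WT cells. The most that any of them had in a library was 24 reads. Sums of the H2A, H2B, H3 and H4 genes each had a higher mean in GAS41-KO than in WT cells (39.8 against 20.3 for H2A, 32.2 against 15.5 for H2B, 43.8 against 18.0 for H3 and 13.9 against 7.59 for H4), while HIST1H1E, the H1 gene among them, averaged 4.32 in GAS41-KO and 5.69 in WT cells. No test was run on these sums. In the doxorubicin experiment 37 genes summed to 85.9, 92.6 and 74.0 in Dox cells, against 168, 124 and 139 in DMSO cells. HIST1H1E, a linker histone gene named here after its values were seen, stood at 6.91, 26.5 and 6.91 in Dox cells, against 64.1, 46.6 and 43.7 in DMSO cells, and at 3.96 to 12.1 in the GAS41 libraries. It reached the level in 1 DMSO library only and so lies just outside the rule, whereas HIST2H2AC lies just inside it, with 3 libraries of the GAS41 experiment at 39.6 to 47.9. Dox replicate 2, the library with more HIST1H1E reads than the other Dox libraries, was also the one with 104 normalized reads of RNAs that lack a tail. Tested with no filter on low values, 14 of the 49 genes were called higher and 1 lower in GAS41-KO against WT cells, beside 20.7% higher and 20.6% lower over all 18797 genes. With Dox 6 of 52 were called higher and 7 lower, beside 24.7% and 21.9% over all 21159 genes, so smaller shares of the histone genes than of all genes were called there.

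**Figure D5:**
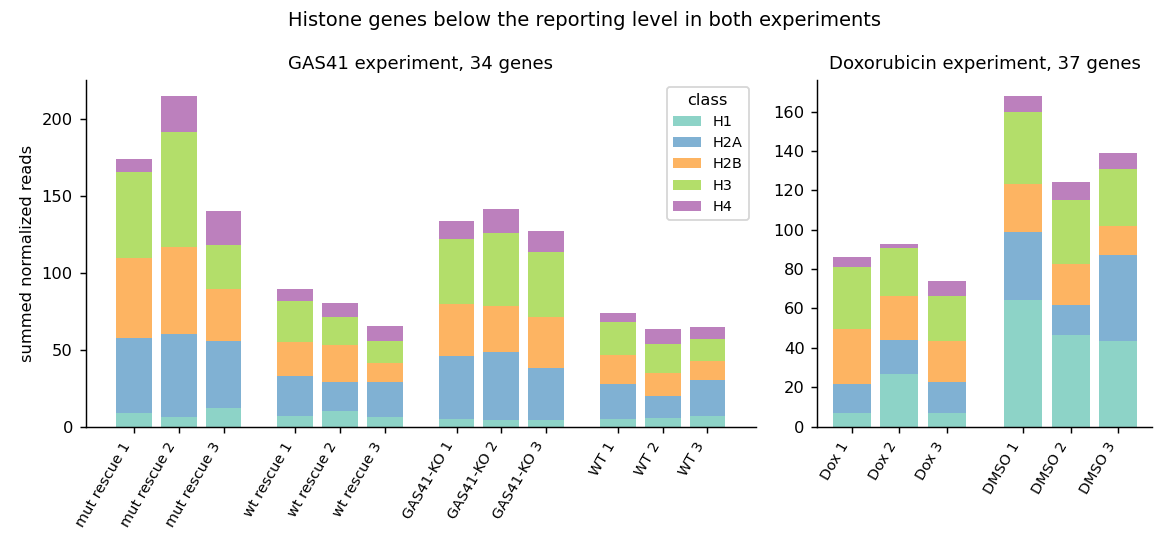
Summed normalized reads (vertical axis, linear from 0) of histone genes below the reporting level in both experiments, 1 bar per library, stacked by histone class. Sums are 127 to 215 in mut rescue and GAS41-KO libraries and 63.3 to 89.6 in wt rescue and WT libraries, and 74.0 to 92.6 in Dox and 124 to 168 in DMSO libraries.

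A list of 15 cluster genes known to give polyadenylated transcripts in some cells was chosen with these data in view and overlaps the reported genes. Of its 7 tested genes all 7 were called higher in GAS41-KO against WT cells, all 7 lower in wt rescue against GAS41-KO cells and all 7 higher in mut rescue against wt rescue cells, where 26.0%, 33.0% and 29.8% of all tested genes were called in those directions. These comparisons share libraries, so they do not count as separate results. Of the 7, HIST1H2AC and HIST2H2BE reached the reporting level only in groups where they were high, and HIST1H2BC did not reach it. HIST1H2BC also passed the filter for testing only through mut rescue and GAS41-KO libraries, where it was high. In mut rescue against GAS41-KO cells 3 of the 7 were called higher (5.92% of all tested genes) and 4 were not called. In Dox against DMSO cells 4 of 6 tested were called higher (32.3% of all tested genes) and the other two were not called. The summed level of the list was 1300 to 1543 normalized reads in mut rescue, 411 to 478 in wt rescue, 985 to 1150 in GAS41-KO and 426 to 450 in WT cells, and 757 to 891 in Dox and 500 to 572 in DMSO cells.

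Genes of DNA replication, which histone supply accompanies in S phase, went opposite to most reported cluster genes in GAS41-KO against WT cells. HIST1H4C leaned the same way as the replication genes there, without being called (log2 difference -0.20). Of 16 S phase genes 14 were called lower in GAS41-KO against WT cells and the other two were not called, with a median log2 difference of -0.50 beside -0.01 over all genes, of which 26.6% were called lower. Against GAS41-KO cells, wt rescue cells had 15 of the 16 called higher, beside 33.0% of all tested genes. Against WT cells, wt rescue cells also had 15 of the 16 called higher, beside 27.4% of all tested genes. There 1 of the 9 reported cluster genes was called higher and 0 lower. In mut rescue against GAS41-KO cells 0 of the 16 were called, while 4 of the 9 cluster genes were called higher. PCNA, the replication clamp, averaged 3634 ± 318 in GAS41-KO and 4979 ± 117 in WT cells (SD, n = 3 each, log2 difference -0.44 ± 0.07, limma adjusted p = 0.00011). With Dox 4 of the 16 were called higher and 8 lower, beside 32.3% and 33.4% of all tested genes. PCNA, also a known p53 target, stood at 11369, 12547 and 11505 in Dox cells, against 5132, 4810 and 4840 in DMSO cells. The part of these S phase differences in the histone values was not tested.

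Of 13 genes for transcription and end processing of histone mRNAs, 7 were called lower in GAS41-KO against WT cells and 6 were not called, beside 26.6% of all tested genes lower. NPAT, the coactivator of cluster genes in S phase, averaged 432 ± 16.1 in GAS41-KO and 732 ± 25.1 in WT cells (log2 difference -0.61 ± 0.14, limma adjusted p = 0.0015). In wt rescue cells NPAT stood at 442, 209 and 224 normalized reads, with replicate 1 near the GAS41-KO mean and the others below it. The part of NPAT in the histone values was not tested. POU2F1, the octamer-binding factor, named here for the octamer after its values were seen, averaged 844 ± 32.2 in GAS41-KO and 1395 ± 58.8 in WT cells, and CPSF2, a subunit of the cleavage complex, averaged 1392 ± 54.8 in GAS41-KO and 2167 ± 34.0 in WT cells. SLBP, the stem-loop binding protein, stood at 2830, 2508 and 2535 in GAS41-KO cells, against 3106, 3098 and 3099 in WT cells (log2 difference -0.23 ± 0.07, limma adjusted p = 0.0087). CASP8AP2, a scaffold of histone locus bodies, was not called in that comparison. With Dox 2 of the 13 were called higher and 9 lower, beside 32.3% and 33.4% of all tested genes, among them SLBP (-0.42 ± 0.07, limma adjusted p = 0.00020), NPAT (-0.42 ± 0.08, limma adjusted p = 0.00044) and CASP8AP2 (-0.29 ± 0.10, limma adjusted p = 0.019).

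Histone mRNA decay genes were called higher in 1 of 6 and lower in 3 of 6 in GAS41-KO against WT cells, and likewise 1 and 3 with Dox. Over all tested genes the shares were 26.0% higher and 26.6% lower in the knockout, and 32.3% higher and 33.4% lower with Dox. ERI1, the exonuclease that trims the stem-loop end, averaged 3648 ± 127 in GAS41-KO and 2559 ± 87.0 in WT cells but 1082 ± 23.3 in Dox and 2285 ± 211 in DMSO cells (SD, n = 3 each).

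Of 21 histone chaperones, the proteins that carry histones to and from DNA, 3 were called higher and 10 lower in GAS41-KO against WT cells, and 4 higher and 14 lower in Dox against DMSO cells. Over all tested genes these shares were 26.0% higher and 26.6% lower in the knockout and 32.3% higher and 33.4% lower with Dox. CHAF1A, a subunit of the replication-coupled assembly factor, was lower in both, with log2 differences of -0.43 ± 0.08 (limma adjusted p = 0.00026) and -0.25 ± 0.07 (limma adjusted p = 0.0056). DAXX, which deposits H3.3, was lower in both as well (-0.32 ± 0.07, limma adjusted p = 0.0012, and -0.24 ± 0.07, limma adjusted p = 0.0084). HIRA, the other H3.3 chaperone named here, was called lower with Dox (-0.49 ± 0.06, limma adjusted p = 1.9e-05) and was not called in the knockout. ASF1B, which hands H3 and H4 to the assembly factors, was called higher with Dox (0.25 ± 0.07, limma adjusted p = 0.0066) and was not called in the knockout. HJURP, the chaperone of the centromeric histone CENPA, averaged 1247 ± 9.56 in GAS41-KO and 1623 ± 20.3 in WT cells, and 721 ± 43.3 in Dox and 1723 ± 33.0 in DMSO cells. NPM1, an abundant nucleolar chaperone, averaged 24969 ± 831 in Dox and 52675 ± 5531 in DMSO cells, and ANP32E, which removes H2A.Z, averaged 1379 ± 3.21 in Dox and 4613 ± 535 in DMSO cells. Of 5 tested histone variants outside the rule 4 were called lower in each comparison, among them H2AFZ, the main H2A.Z gene, with 10131 ± 290 in GAS41-KO and 13424 ± 188 in WT cells, and 7686 ± 587 in Dox and 18173 ± 3011 in DMSO cells.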

How the data were processed

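RNA libraries of 2 experiments were analysed (12 and 6 libraries); 26 chromatin libraries were not analysed here. The deposited values are log2 values, variance-stabilized by the authors; the submitters' processing notes list Trimmomatic 0.36, TopHat2 2.1.0, HTSeq and DESeq2, with no role or order, and the build hg19 among others. Inverting the transformation and multiplying by the size factor of the library gave whole reads for all values, to within 1e-06. Python 3.11.15, R 4.3.3 and limma 3.58.1 were used. Testing was limited to genes that reached 10 recovered reads in 3 or more libraries, and used limma on the log2 values, with a mean-dependent prior variance, 1 fit per experiment, and Benjamini-Hochberg adjustment over all genes tested; calls are at an adjusted p under 0.05. The fit was run on simulated reads with 1 small spread setting for all genes, so that run does not cover genes with a wider spread. Every reported histone gene is named; from the lists, 7 fixed genes and those of smallest p. Members and lists were chosen with earlier results of these data known. The numbers of libraries limit the precision; depth is given with the results. Alternatives were other filters, a replicate block, voom on recovered reads, quantile normalization, a single prior variance, 2-group fits and leaving out each library. Same-numbered libraries did not all deviate together, and the main fit did not pair them. In the GAS41 experiment the same-numbered pairs of replicate 1 and of replicate 2 all correlated positively, so a pairing of these was not excluded.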

Additional observations from a re-analysis of the deposited data

How the results depend on the processing

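Counts of called genes among the 15 (11 with Dox) were recomputed under each alternative. With no filter on low values, 1 gene was called lower in GAS41-KO against WT cells instead of 2. With quantile normalization, or with only the libraries of the 2 groups, 1 gene was called lower in mut rescue against GAS41-KO cells instead of 0. In mut rescue against wt rescue cells, 2 genes were called lower with quantile normalization and 1 with only the libraries of the 2 groups, instead of 4. Leaving out each library in turn gave 8 higher and 1 lower in GAS41-KO against WT, 2 to 3 higher and 7 lower in wt rescue against GAS41-KO, 3 to 4 higher and 0 to 3 lower in mut rescue against GAS41-KO, 8 higher and 2 to 4 lower in mut rescue against wt rescue, 1 to 5 higher and 1 lower in wt rescue against WT, 7 to 8 higher and 2 to 4 lower in mut rescue against WT, and 2 to 4 higher and 3 to 4 lower in Dox against DMSO cells. A fit with the replicate number as a block gave 8 higher and 3 lower in GAS41-KO against WT cells and 3 higher and 3 lower with Dox, and it moved no count by over 1.5 times; same-numbered libraries correlated between -0.39 and 0.48.

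Signs turned only in genes that were not called. With quantile normalization HIST2H2BC was at -0.010 in GAS41-KO against WT cells, H2AFY at -0.043, HIST1H1C at 0.0038 and HIST1H2AC at 0.092 in wt rescue against WT cells, and H3F3B at 0.071 and HIST3H2A at -0.011 in Dox against DMSO cells. Leaving out each library gave H2AFX -0.053 to 0.0063 in GAS41-KO against WT cells, HIST1H2AC -0.033 to 0.040 and HIST2H2BE -0.0021 to 0.098 in wt rescue against WT cells, and HIST1H4C -0.20 to 0.028 in Dox against DMSO cells. The cause of these changes was not tested. Low reads limit HIST2H2AC, HIST2H2BC and HIST2H2BE most.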

Other observations

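H3F3C, a human gene for an H3 protein close to that of H3F3B and outside the rule, differed between WT cells and the 3 groups made from knockout cells. It stood at 12, 8.98 and 11.1 normalized reads in mut rescue, 12.9, 12.5 and 22.7 in wt rescue and 8.98, 7.92 and 13.0 in GAS41-KO cells, against 77.3, 89.7 and 63.6 in WT cells. H3F3C thus stayed low in wt rescue cells (log2 difference from WT -0.73 ± 0.07, limma adjusted p = 2.2e-06), in which most cluster histone genes had values near WT cells. In the doxorubicin experiment it was not called, at 56.3, 53.9 and 48.3 in Dox cells and 66.1, 57.6 and 53.4 in DMSO cells. It was named after its values were seen, and reads shared with H3F3B make its level uncertain.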
